A study of Mus musculus with 36 samples.

Results

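The genes described here are 10 chaperone and stress genes of the mouse brain. They comprise the endoplasmic reticulum (ER) chaperones Hspa5, Hsp90b1, Pdia4, Calr and Sdf2l1, the ER stress transcription factor Ddit3, and the cytosolic heat shock genes Hspa1a, Hspa1b, Dnajb1 and Hsph1. They were taken by gene name from the deposited tables, which list 55450 genes at 1 month, 53379 at 2 months and 54146 at 3 months, and each of the 10 had enough reads to be tested at every age. RNA-seq libraries were made from forebrain/midbrain (F/M, sampled together) and cerebellum (Cb) of Tpp1-/- and control mice of 1, 2 and 3 months, with 3 libraries for each age, region and genotype and 36 in all. Tpp1 encodes tripeptidyl peptidase 1, the lysosomal protease missing in CLN2 disease, a neuronal ceroid lipofuscinosis of childhood. In the mutant line Tpp1 is disrupted by gene targeting in the germ line, and so in every cell type. The controls are labelled wild type, except that control replicate 3 of 1 month is labelled Tpp1+/- in each region. By the labels all mice of 2 months were male, replicate 1 of 1 month and replicate 3 of 3 months were female in every group, and the other mice were male. The comparisons ask whether ER and cytosolic stress genes differ between Tpp1-/- and control brain before and at the onset of disease, and how they differ between the regions.

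Proteins bound for secretion, the plasma membrane and lysosomes fold in the ER, and lysosomal enzymes pass through it. When unfolded protein collects there, sensors in the ER membrane start the unfolded protein response, in which the transcription factors Atf6 and Xbp1 raise ER chaperone genes through ER stress elements in their promoters, while the Atf4 branch raises Ddit3, which encodes CHOP. In the cytosol, unfolded protein frees heat shock factor Hsf1, which binds heat shock elements, repeats of GAA and its complement TTC, and raises the inducible Hsp70 genes Hspa1a and Hspa1b together with their partners. Neurons are known for a weak heat shock response and for high basal levels of several constitutive chaperones.

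The promoters of 5 of the genes are printed because their letters include a motif searched for these pathways, the ER stress element or the short and common pair of heat shock units. Each is the 250 bases before a RefSeq transcription start on GRCm38.p6, 5′ to 3′ on the strand of the gene. Capitals mark the ER stress element (ERSE: CCAAT, 9 bases of any kind, CCACG) on either strand in the first 3 sequences, and a pair of heat shock units, GAANNTTC or TTCNNGAA, in the last 2.
Hspa5, chr2:34771840-34772089, plus strand: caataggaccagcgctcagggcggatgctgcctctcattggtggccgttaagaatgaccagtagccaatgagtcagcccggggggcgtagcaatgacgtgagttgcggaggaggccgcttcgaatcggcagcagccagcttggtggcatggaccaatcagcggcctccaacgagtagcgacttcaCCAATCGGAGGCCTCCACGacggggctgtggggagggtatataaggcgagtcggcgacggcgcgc
Hsp90b1, chr10:86705445-86705694, minus strand: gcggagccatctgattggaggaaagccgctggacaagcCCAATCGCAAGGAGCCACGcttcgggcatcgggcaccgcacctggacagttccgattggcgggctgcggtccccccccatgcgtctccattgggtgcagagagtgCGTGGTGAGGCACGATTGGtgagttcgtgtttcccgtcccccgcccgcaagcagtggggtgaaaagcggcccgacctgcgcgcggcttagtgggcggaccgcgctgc
Calr, chr8:84846932-84847181, minus strand: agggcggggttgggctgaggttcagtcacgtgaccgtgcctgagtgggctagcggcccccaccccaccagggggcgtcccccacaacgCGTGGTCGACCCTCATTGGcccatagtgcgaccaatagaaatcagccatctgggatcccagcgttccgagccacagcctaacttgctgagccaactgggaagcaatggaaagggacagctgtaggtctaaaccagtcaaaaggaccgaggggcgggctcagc
Hspa1a, chr17:34972157-34972406, minus strand: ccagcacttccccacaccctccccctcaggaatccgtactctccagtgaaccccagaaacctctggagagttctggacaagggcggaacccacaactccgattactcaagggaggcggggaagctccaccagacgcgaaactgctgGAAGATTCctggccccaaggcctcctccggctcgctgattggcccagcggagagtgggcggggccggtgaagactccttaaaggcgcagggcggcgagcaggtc
Hsph1, chr5:149636337-149636586, minus strand: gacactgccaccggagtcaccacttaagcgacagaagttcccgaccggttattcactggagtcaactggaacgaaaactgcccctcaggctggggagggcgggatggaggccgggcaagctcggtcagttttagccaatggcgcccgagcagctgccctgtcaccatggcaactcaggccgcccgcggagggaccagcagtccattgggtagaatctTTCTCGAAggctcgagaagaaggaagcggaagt

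The ER stress element was present in 3 of the 10 promoters, and in 37 of all 32851 RefSeq windows of this length searched on both strands, or 0.113%. In Hspa5, which encodes the Hsp70 of the ER (BiP), it began 65 bases before the start. Hsp90b1, the Hsp90 of the ER (GRP94), held 2 copies, one at 212 bases and one on the opposite strand at 107 bases, and Calr, the calcium-binding lectin chaperone calreticulin, held one on the opposite strand at 162 bases. The pair GAANNTTC lay 104 bases before the start of Hspa1a and of Hspa1b and occurs in 6.69% of all windows. TTCNNGAA lay 33 bases before the start of Hsph1, which encodes the Hsp110 nucleotide exchange factor of Hsp70, and occurs in 7.17%. These pairs are short and common, the longer forms with 3 units (GAA, TTC and GAA or TTC, GAA and TTC, with 2 bases between units, which contain both pairs and occur in 0.466% of windows each) were not in any window of the 10 genes, and the other motifs searched were not either. Those were ERSE-II (in 0.0304% of windows), the core TGACGTGG (0.563%) and the C/EBP-ATF motif TGATGNAA (3.45%). A match of letters is a description of the window and no measurement of binding.

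Hspa1a (chromosome 17 of GRCm38, 34969190 to 34972156, minus strand) and Hspa1b (34956436 to 34959238, minus strand) are neighbours separated by 9951 bases and are near copies of each other. Their promoter windows differ at 3 positions counted from 1 at the 5′ end, with the base of Hspa1a first: C44T, T47C and T249G. Of all 50-base windows in the exons of Hspa1a, 58.8% also occur in Hspa1b, and 62.3% of those of Hspa1b occur in Hspa1a, so 50-base reads from one could be counted on the other or lost. The pair is therefore also given as a sum. Hsp90b1 shares 2.96% of its windows with other annotated genes, Dnajb1 0.38% and Calr 0.343%. The other 5 share none with a gene of another name. Identifiers of the same name were left out, so windows that Ddit3 shares with a second identifier of its name were not counted.

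The libraries held 10609896 to 29942380 counted reads (median 21049839), and levels are given as CPM, read counts relative to the TMM-scaled total of the library. Tpp1 itself stood at 69.7 to 89.5 CPM in the wild-type libraries of 1 month, at 46.6 (F/M) and 55.9 CPM (Cb) in the 2 heterozygous libraries of that age, at 91.5 to 111 CPM in controls of 2 months and at 42.1 to 56.0 CPM in those of 3 months. In the 18 Tpp1-/- libraries it stood at 16.1 to 27.8 CPM. The controls of 3 months, all labelled wild type, thus stood near the 2 heterozygous libraries of 1 month. The ages were counted with different settings, and whether the label or the counting gave this was not tested. Summed over 11 cerebellum markers, Cb libraries had 7370 to 10000 CPM and F/M libraries 296 to 382, and summed over 10 forebrain markers they had 124 to 186 and 609 to 763. A list of 14 midbrain and thalamus markers gave 275 to 418 CPM in F/M and the higher sum of 476 to 744 in Cb. By its sum that list therefore did not mark F/M. In whole tissue, a smaller number of cells of a type and less RNA per cell cannot be told apart.

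The 5 ER chaperones and the 4 cytosolic genes spanned a wide range of levels, which were compared per length, as CPM per kilobase of exon over all 36 libraries. Calr was highest with a median of 125 (85.3 to 162), followed by Hsp90b1 with 97.9 (79.6 to 138) and Hspa5 with 79.8 (63.6 to 122). Hsph1 came next with 38.9 (19.1 to 64.4), followed by Pdia4, a protein disulphide isomerase of the ER, with 21.6 (17 to 28.8). Dnajb1, the Hsp40 that delivers substrates to Hsp70, had 15.1 (10 to 21.2). Ddit3 had 7.82 (5.39 to 13.9) and Sdf2l1, a small ER protein that works with BiP and its ERdj3 partner, 7.7 (4.9 to 22.5).

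Hspa1a and Hspa1b stood at the foot of the order, with 1.07 (0.449 to 1.75) and 0.84 (0.419 to 1.63) CPM per kilobase. They rested on 24 to 130 and 25 to 94 reads per library. Most neighbours in the order differed in nearly every library: Calr was above Hsp90b1 in 33 of 36, Hsp90b1 above Hspa5 in 35, and Hspa5 above Hsph1, Dnajb1 above Ddit3 and Sdf2l1 above Hspa1a in 36. Ddit3 was above Sdf2l1 in 22 and Hspa1a above Hspa1b in 24, and the ranges of each of these pairs overlapped. Hsph1 was above Pdia4 in 28, and the libraries in which it was not were all of Cb.

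**Figure D1:**
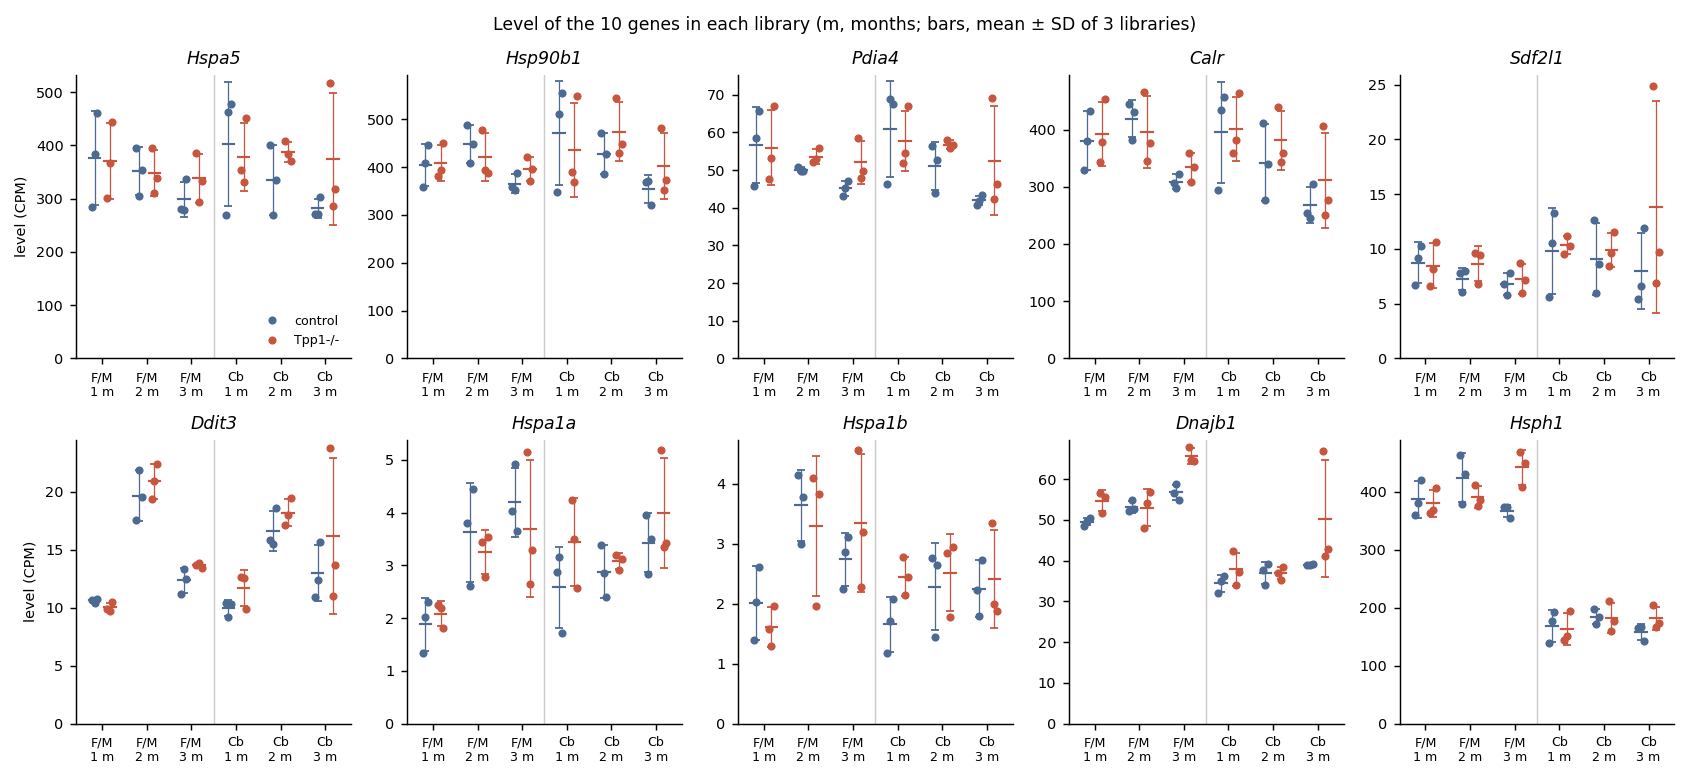
Level of each of the 10 genes in each of the 36 libraries, in CPM on axes that start at 0, by region, age and genotype, with 1 point per library and bars for the mean ± SD of 3 libraries. Hsph1 lies between 355 and 468 CPM in the F/M libraries and between 138 and 211 CPM in the Cb libraries, while the control and Tpp1-/- points of most genes overlap.

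At 1 month none of the 10 genes differed between Tpp1-/- and control mice by the call used here, a fold change of 1.5 or more with an adjusted p below 0.1. Of all genes 0.0112% were called in F/M at that age, and 0.0112% in Cb. At an unadjusted p under 0.05 the count was also 0 of 10 in each region, against 1.89% and 7.66% of all genes, and DESeq2 and limma-voom called 0 as well. In F/M the median log2 fold change over the 10 genes was −0.02 and 4 were positive, and in Cb it was 0.05 and 6 were positive, with medians near 0 over all genes tested.

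Hspa5 in F/M stood at 284, 384 and 460 CPM in controls (replicates 1, 2 and 3) and at 301, 366 and 444 CPM in Tpp1-/- mice. The groups overlapped over nearly their whole range, and the log2 fold change was −0.02 (95% interval −0.48 to 0.43). Sdf2l1 in F/M had 6.66, 9.21 and 10.3 CPM in controls and 6.58, 8.18 and 10.6 CPM in Tpp1-/- mice, with the same overlap. In both genes the order of the replicates was the same in the 2 genotypes.

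The groups did not overlap for 1 of 10 genes in each region at 1 month, against 14.8% of all genes in F/M and 7.97% in Cb. In F/M this was Dnajb1, with 48.5, 49.7 and 50.3 CPM in controls and 56.5, 51.7 and 55.7 CPM in Tpp1-/- mice. Its log2 fold change was 0.14 (−0.05 to 0.33), within the 1.5-fold minimum. In Cb it was Hspa1b, with 1.17, 1.71 and 2.08 CPM in controls and 2.78, 2.14 and 2.44 CPM in Tpp1-/- mice. All Tpp1-/- libraries lay above all controls, on 29 to 74 reads each, and the log2 fold change was 0.56 (−0.00 to 1.13, unadjusted p = 0.0506). Hspa1a in the same libraries had 2.88, 3.15 and 1.71 CPM in controls and 4.24, 3.504 and 2.57 CPM in Tpp1-/- mice, which overlap. With the pair summed, the log2 fold change was 0.49 (0.06 to 0.91) and the adjusted p 0.630. By summed CPM, the markers that did not overlap between the genotypes at 1 month were 8 neuron markers in F/M and 10 microglia markers in Cb. The neuron markers stood at 8042 to 8111 CPM in controls and 8180 to 8577 in Tpp1-/- mice. The microglia markers stood at 142 to 172 and 175 to 195 in Cb, and in F/M, where they overlapped only just, at 385 to 414 and 413 to 450. The part of these lists was not tested.

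The Tpp1-/- effect on Hspa1b was greater in Cb than in F/M by 0.90 on the log2 scale at 1 month (0.08 to 1.72, unadjusted p = 0.0325). For the sum of Hspa1a and Hspa1b this difference was 0.57 (−0.04 to 1.19, unadjusted p = 0.0641). After adjustment over all genes neither this nor any other of the 10 genes passed the test of the difference between regions, which called 0% of all genes at 1 month, 2.97% at 2 months and 0.00581% at 3 months. At an unadjusted p under 0.05 the counts were 1, 0 and 0 of 10, against 1.94%, 11.5% and 3.51% of all genes.

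At 2 months the count of genes called was again 0 of 10 in F/M and in Cb, against 0.737% and 2.05% of all genes, and 0 by DESeq2 and by limma-voom. At an unadjusted p under 0.05 it was 0 of 10 in both, against 16.9% and 9.67%. The median log2 fold change was −0.05 in F/M, with 3 genes positive, and 0.14 in Cb, with 8 positive and with all 5 ER chaperones among them. Hspa5 in Cb had 400, 270 and 335 CPM in controls and 408, 385 and 370 CPM in Tpp1-/- mice. The Tpp1-/- libraries covered the upper end of the control range, and the log2 fold change was 0.21 (−0.04 to 0.46).

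Pdia4 in F/M was the single gene of the 10 whose groups did not overlap at 2 months, with 50.9, 49.6 and 49.7 CPM in controls and 52.1, 52.9 and 55.9 CPM in Tpp1-/- mice. The difference was 0.10 on the log2 scale (−0.07 to 0.26). In the same F/M libraries astrocyte markers summed to 4680 to 5655 CPM in controls and to 5954 to 7357 CPM in Tpp1-/- mice, and the midbrain and thalamus markers to 275 to 322 and 351 to 385. Lower in Tpp1-/- mice without overlap were forebrain markers, at 642 to 677 CPM against 719 to 738, immediate early genes, at 357 to 383 against 448 to 594, and 6 circadian clock genes, at 342 to 354 against 363 to 389. The part of these lists in the difference of Pdia4 was not tested. In F/M 18.3% and in Cb 18.1% of all genes did not overlap, and in Cb none of the 10 did. Ddit3 in Cb had 15.8, 15.5 and 18.6 CPM in controls and 17.1, 18.0 and 19.5 CPM in Tpp1-/- mice, with a log2 fold change of 0.13 (−0.09 to 0.34). In the same Cb libraries 14 choroid plexus markers summed to 1035 to 1334 CPM in controls and to 1685 to 1866 CPM in Tpp1-/- mice. A further fit took the mean log2 level of these markers, the choroid plexus score, as a covariate. In it the log2 fold change was 0.23 for Hspa5 and 0.03 for Ddit3, and none of the 10 genes was called. The sums of these markers did not overlap between the genotypes in Cb, so the fit cannot fully separate score and genotype. Immediate early genes were lower in Tpp1-/- Cb, at 99.6 to 121 CPM against 139 to 177 in controls, and their part was not tested.

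At 3 months 0 of 10 genes were called in F/M and 0 in Cb, against 0.464% and 0.859% of all genes. DESeq2 and limma-voom also called 0 in each region. The signs, however, were mostly positive. They were so for 9 of 10 genes in F/M, with a median log2 fold change of 0.16. In Cb they were so for 10 of 10, with a median of 0.27. Medians over all genes tested were near 0. Without Cb Tpp1-/- replicate 1, the values of Calr, Ddit3, Hspa1a and Hspa1b in Cb were negative. The ER chaperones of a library also varied together, so these are not 10 separate signs. An unadjusted p under 0.05 was reached by 1 of 10 genes in F/M and 3 in Cb, against 5.94% and 6.49% of all genes.

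In F/M at 3 months, the groups did not overlap for Pdia4, Ddit3, Dnajb1 and Hsph1, all higher in Tpp1-/- mice, which is 4 of 10 genes against 24.1% of all genes in either direction and 11.8% in this one. Hsph1 had 374, 372 and 355 CPM in controls and 468, 408 and 449 CPM in Tpp1-/- mice. Each Tpp1-/- library was above each control, with a log2 fold change of 0.27 (0.05 to 0.48) and an adjusted p of 0.658 (unadjusted p = 0.0196). Dnajb1 had 56.6, 58.7 and 54.8 CPM in controls and 67.8, 64.6 and 64.5 CPM in Tpp1-/- mice, with a log2 fold change of 0.21 (−0.10 to 0.52). The Tpp1-/- values of Dnajb1 lay close together and apart from the controls, by less than the 1.5-fold minimum. In a fit of the 6 F/M libraries alone the adjusted p was 0.00173 for Hsph1, 0.0154 for Dnajb1 and 0.0779 for Pdia4, with each fold still under the minimum, and over all alternatives it reached 1 for each of the 3 genes. Ddit3 stood at 11.2, 13.4 and 12.5 CPM in controls and 13.7, 13.85 and 13.4 CPM in Tpp1-/- mice, with its groups all but touching. Hspa1a was the exception in sign, at 4.03, 4.91 and 3.65 CPM in controls against 5.14, 2.65 and 3.29 CPM in Tpp1-/- mice, with a log2 fold change of −0.17 (−0.72 to 0.38).

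Markers of other cell types differed without overlap in the same F/M libraries of 3 months. Microglia markers summed to 434 to 465 CPM in controls and to 544 to 602 in Tpp1-/- mice, and 8 astrocyte markers to 6878 to 7020 and 7074 to 7693. Lower in Tpp1-/- mice were 8 oligodendrocyte markers, at 5296 to 5928 CPM against 6313 to 6543, the midbrain and thalamus markers, at 282 to 334 against 408 to 418, and the cerebellum markers, at 309 to 344 against 351 to 382. Immediate early genes were lower as well, at 660 to 758 CPM against 880 to 956. Cirbp and Rbm3, genes of RNA-binding proteins that are induced by mild cold, summed to 76.9 to 88.9 CPM in Tpp1-/- mice and to 91.8 to 92.7 CPM in controls, also without overlap. The part of these in the differences of Pdia4, Ddit3, Dnajb1 and Hsph1 was not tested.

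In Cb at 3 months, the difference of the ER chaperones lay in 1 library. Hspa5 had 271, 272 and 303 CPM in controls and 516, 287 and 319 CPM in Tpp1-/- mice. Sdf2l1 had 5.43, 6.65 and 11.9 CPM in controls and 24.9, 6.90 and 9.72 CPM in Tpp1-/- mice. Ddit3 had 10.95, 12.4 and 15.7 CPM in controls and 23.8, 11 and 13.7 CPM in Tpp1-/- mice. In all 3 genes Tpp1-/- replicate 1 stood far above the other libraries and the groups overlapped. Dnajb1, whose groups did not overlap, had 38.9, 38.8 and 39.2 CPM in controls and 66.8, 41.1 and 42.8 CPM in Tpp1-/- mice. That is 1 of 10 genes, against 8.67% of all genes.

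The log2 fold changes of that comparison were 0.41 (0.02 to 0.80, unadjusted p = 0.0411, adjusted p = 0.728) for Hspa5 and 0.37 (0.05 to 0.68, unadjusted p = 0.0245, adjusted p = 0.634) for Dnajb1. Pdia4 had 0.32 (0.00 to 0.65, unadjusted p = 0.0493), Sdf2l1 0.79 (−0.04 to 1.63) and Ddit3 0.31 (−0.16 to 0.79). Without Tpp1-/- replicate 1 the values were 0.11 for Hspa5, 0.11 for Dnajb1, 0.08 for Pdia4, 0.05 for Sdf2l1 and −0.08 for Ddit3. Those of Calr, Hspa1a and Hspa1b were then −0.02, −0.02 and −0.21, those of Hsp90b1 and Hsph1 0.04 and 0.11, and none of the 10 was called. With no filter on low counts the fit called Sdf2l1 (log2 fold change 0.79, adjusted p = 0.00041), and over all alternatives its adjusted p ranged from 0.00041 to 1.

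**Figure D2:**
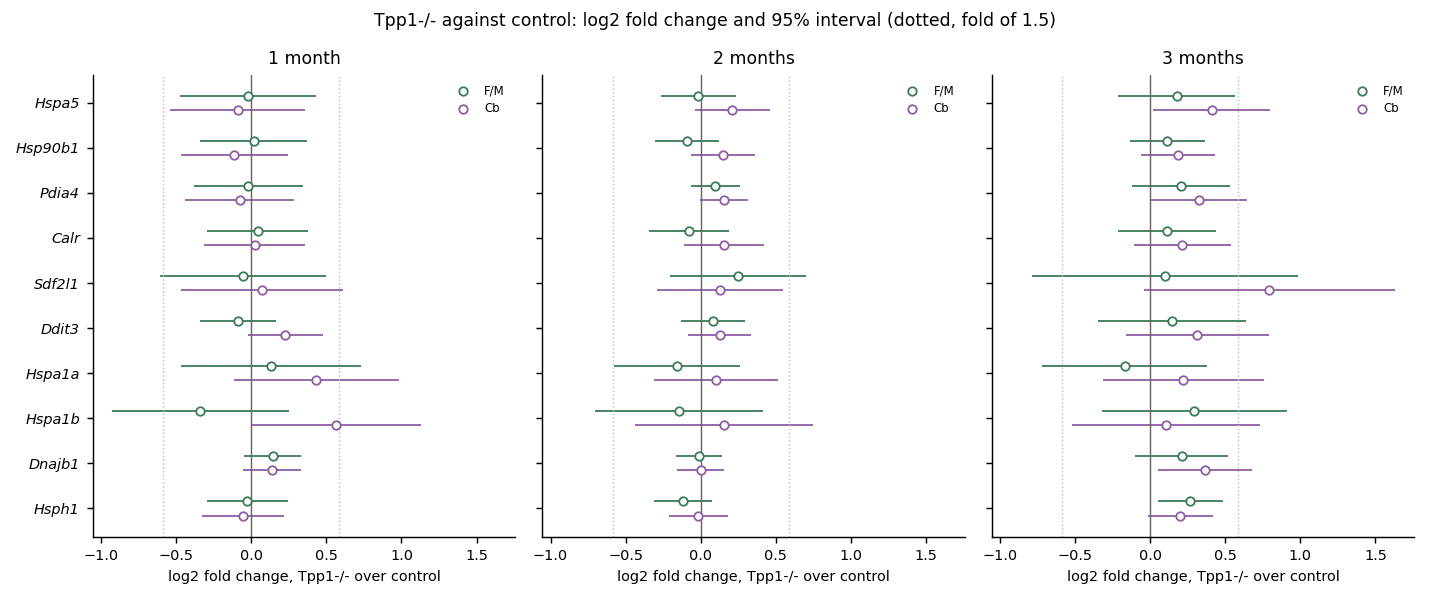
Log2 fold change of Tpp1-/- against control for each of the 10 genes in the 6 comparisons of age and region, with 95% intervals from the edgeR fit and dotted lines at a fold of 1.5. None was called, and the widest intervals are those of Sdf2l1, Hspa1a and Hspa1b.

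Cb Tpp1-/- replicate 1 of 3 months was the highest of the 6 Cb libraries of its age for 10 of 10 genes, and the highest of all 36 libraries for Hspa5, Pdia4, Sdf2l1, Ddit3 and Hspa1a. Relative to the next highest Cb library of that age, it was 2.09-fold higher for Sdf2l1, 1.62-fold for Hspa5, 1.56-fold for Dnajb1, 1.52-fold for Ddit3 and 1.5-fold for Pdia4. The other 5 genes stood 1.18-fold (Hsph1) to 1.33-fold (Calr) above it. Among related genes, this library was highest for 10 of 15 other ER chaperone and ER-associated degradation genes (66.7%). It was also highest for 7 of 10 genes of the ER stress sensors and the Atf4 branch (70%). Among other cytosolic chaperone and heat shock factor genes it was so for 12 of 22 (54.5%). Of all 17224 genes tested it was highest for 5338, or 31%.

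Markers of other cell types also set that library apart. Its 14 choroid plexus markers summed to 1765 CPM, against 865 to 896 in the other Tpp1-/- libraries and 999 to 1578 in the controls. Its 10 microglia markers summed to 463 CPM, against 301 to 333 and 152 to 185, and its 10 forebrain markers to 186 CPM, against 124 to 127 and 141 to 146. Its 11 cerebellum markers were also the highest, at 8841 CPM against 8285 to 8451 and 8025 to 8370. Its midbrain and thalamus markers were lowest, at 476 CPM against 596 to 707 in the other 5. Its 10 immediate early genes summed to 199.5 CPM, above the other Tpp1-/- libraries (151.8 and 152) and within the control range of 193 to 255. In 4 lists all 3 Tpp1-/- libraries, and not this one alone, lay apart from the controls by summed CPM, as Dnajb1 did by its level. They were the microglia markers, the astrocyte markers, at 6196 to 6470 CPM against 5703 to 5839 in controls, the 8 endothelial markers, at 226 to 248 against 251 to 262, and the cold-inducible pair Cirbp and Rbm3, at 119 to 132 against 139 to 146. In the fit that includes the choroid plexus score the log2 fold changes were 0.42 for Hspa5, 0.38 for Dnajb1, 0.34 for Pdia4, 0.85 for Sdf2l1 and 0.35 for Ddit3, and none of the 10 was called. This fit gives the score a shared slope over the 12 libraries of the age. The part of choroid plexus in this library by itself was not tested, nor was that of the other lists in the high chaperone values.

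Of the 60 intervals, 1 for each gene in each of the 6 genotype comparisons, 40 lay wholly inside the 1.5-fold minimum in both directions. This was so in 6 of 6 comparisons for Hsp90b1, Calr and Hsph1, in 5 for Hspa5, Pdia4 and Dnajb1, and in 4 for Ddit3. For Hspa1a it was 2, for Sdf2l1 1 and for Hspa1b 0, so for these 3 genes most intervals reached a change of 1.5-fold.

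Among the related genes of the same pathways, in lists of 15, 10 and 22 genes, Hmox1 was the only one called in a genotype comparison. Hmox1 encodes heme oxygenase 1, an enzyme of heme breakdown that is induced by heat shock and by oxidative stress through Nrf2. At 3 months in F/M it had 3.67, 2.55 and 3.15 CPM in controls and 5.87, 6.65 and 6.17 CPM in Tpp1-/- mice. Every Tpp1-/- library was above every control, and the log2 fold change was 0.99 ± 0.18 (SE, adjusted p = 0.0285). In Cb it had 3.34, 2.94 and 3.33 CPM in controls and 6.58, 4.74 and 4.93 CPM in Tpp1-/- mice, a rise of 0.76 ± 0.17 (SE, adjusted p = 0.0768) on the log2 scale, again without overlap. Microglia express Hmox1, and the 10 microglia markers of that age were higher in the same libraries, at 544 to 602 CPM in Tpp1-/- F/M against 434 to 465 in controls and at 301 to 463 CPM in Tpp1-/- Cb against 152 to 185 in controls. Their part in the rise was not tested. In F/M the call was lost without control replicate 2 (adjusted p = 0.186), control replicate 3 (0.119) or Tpp1-/- replicate 2 (0.153), within a range of 0.000898 to 0.186 over all alternatives. In Cb the adjusted p ranged from 0.0177 to 0.498, and the call was lost with sex as a covariate (0.108), with the replicate number as a block (0.197), in the fit of the 6 Cb libraries alone (0.498) and without any 1 of the 3 controls or Tpp1-/- replicate 3.

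The remaining genes of these lists were not called in any genotype comparison. At 3 months 19 of the 22 cytosolic chaperone and heat shock factor genes had a positive log2 fold change in F/M and 19 in Cb, Hmox1 included, with medians of 0.13 and 0.10. Of the 15 other ER genes 11 were positive in F/M, with a median of 0.03, and 14 in Cb, with a median of 0.13. Of the 10 genes of the sensors and the Atf4 branch, 6 and 7 were positive, both with a median of 0.05. The Cb values include the replicate that stood apart.

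The change of the genotype effect with age was tested in a model of all 36 libraries, and 0 of 10 genes passed in each of 6 comparisons. The share of all genes that did so was 0.0218% between 1 and 2 months, 0.393% between 2 and 3 months and 0.153% between 1 and 3 months in F/M, and 1.28%, 1.44% and 0.458% in Cb. The effect on Hsph1 in F/M was 0.39 higher at 3 than at 2 months on the log2 scale (0.06 to 0.72, unadjusted p = 0.0222, adjusted p = 0.504), and that on Dnajb1 in Cb was 0.37 higher (0.05 to 0.69, unadjusted p = 0.0256, adjusted p = 0.595). The value of Dnajb1 rested on the 3-month Cb Tpp1-/- replicate 1, without which it was 0.11, and its adjusted p ranged from 0.145 to 0.990 over all alternatives. At an unadjusted p under 0.05 these were the only 2 of the 60 tests, 1 of 10 genes in each region from 2 to 3 months, against 8.12% of all genes in F/M and 6.41% in Cb. From 1 to 2 months the count was 0 against 8.81% and 8.85%, and from 1 to 3 months 0 against 5.41% and 7.91%. The median difference over the 10 genes from 2 to 3 months was 0.20 for F/M and 0.18 for Cb. In Cb this too rested on the 3-month Tpp1-/- replicate 1, without which 8 of the 10 differences were negative, from −0.37 (Hspa1b) to −0.08 (Sdf2l1), and those of Dnajb1 and Hsph1 were 0.11 and 0.12. In Ddit3 the level itself differed between the ages, with 9.24 to 12.7 CPM (median 10.4) over the 12 libraries of 1 month, 15.5 to 22.4 CPM (median 19.0) at 2 months and 10.95 to 23.8 CPM (median 13.4) at 3 months. The ages were counted with different annotation releases and strand settings, so that age and processing cannot be told apart in levels.

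The differences called for these genes were those between the regions, and Hsph1 carried most of them. Over the 18 F/M libraries Hsph1 had 355 to 468 CPM with a median of 382, and over the 18 Cb libraries 138 to 211 CPM with a median of 173. No Cb library reached the lowest F/M library at any age or in either genotype. Its log2 fold change of Cb against F/M was −1.19 (−1.47 to −0.92, adjusted p = 1.28e-06) at 1 month, −1.20 (−1.40 to −1.005, adjusted p = 1.65e-09) at 2 months and −1.22 (−1.44 to −0.9995, adjusted p = 2.02e-07) at 3 months in controls. In Tpp1-/- mice it was −1.22 (−1.50 to −0.94), −1.10 (−1.30 to −0.90) and −1.28 (−1.50 to −1.06). Hsph1 was thus called lower in Cb in 6 of 6 comparisons, and in every alternative its log2 fold change stayed between −1.38 and −1.01.

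Hsph1 was the single one of the 10 genes called in controls at 1 month (36.9% of all genes called) and at 3 months (37.7%), while at 2 months 2 of 10 were called (39.3%). In Tpp1-/- mice 3 of 10 were called at 1 month (37.4%), 1 at 2 months (39.4%) and 2 at 3 months (38.2%). As a share of the 10, each of these counts is under that of all genes.

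Dnajb1, which loads Hsp70 and works beside Hsph1, was also lower in Cb, by less. It had 48.1 to 67.8 CPM (median 54.9) in F/M and 32.1 to 66.8 CPM (median 38.0) in Cb, where the highest Cb value is that of the 3-month library described above. In controls the log2 fold change was −0.52 (adjusted p = 0.000167), −0.53 (adjusted p = 4.87e-06) and −0.54 (adjusted p = 0.00652) at 1, 2 and 3 months, each without overlap, and in Tpp1-/- mice −0.53, −0.52 and −0.38. All 6 passed the adjusted p but were under the 1.5-fold minimum. Without Cb Tpp1-/- replicate 1 of 1 month the value of that age was −0.62 and was called. Without Cb Tpp1-/- replicate 1 of 3 months the value in Tpp1-/- mice of 3 months was −0.65 (adjusted p = 1.55e-06) and was called, and over all alternatives the adjusted p ranged from 1.55e-06 to 0.143 at 3 months and from 2.66e-07 to 0.00116 at 1 month.

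Hspa1a and Hspa1b held no single order between the regions. In Tpp1-/- mice of 1 month both were higher in Cb, Hspa1a at 2.25, 2.20 and 1.81 CPM in the F/M libraries and 4.24, 3.504 and 2.57 CPM in those of Cb (log2 fold change 0.72, 0.16 to 1.29, adjusted p = 0.0316). Hspa1b had 1.58, 1.29 and 1.95 CPM in the F/M libraries and 2.78, 2.14 and 2.44 CPM in those of Cb (0.62, 0.04 to 1.197, adjusted p = 0.0657), and the sum of the pair 0.68 (adjusted p = 0.0103). The groups did not overlap in either gene. The call of Hspa1a was lost without F/M replicate 3 or Cb replicate 1, and that of Hspa1b without F/M replicate 1 or 2 or Cb replicate 1.

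In controls of 2 months Hspa1b was instead lower in Cb, with 4.14, 2.99 and 3.77 CPM in the F/M libraries and 2.76, 1.45 and 2.65 CPM in those of Cb. Its log2 fold change there was −0.69 (−1.26 to −0.12, adjusted p = 0.0320). The call was lost without F/M control replicate 1 (−0.56, under the fold minimum) or Cb control replicate 2 (−0.43, adjusted p = 0.186), within a range of 0.00164 to 0.186 over all alternatives, and the summed pair, at −0.50, was under the fold minimum. In Tpp1-/- mice Hspa1b was called lower in Cb only when single libraries were left out, F/M replicate 2 at 2 months and F/M replicate 2 or Cb replicate 1 at 3 months. Hspa1a was called higher in Cb in controls of 1 month when Cb replicate 3, the heterozygous library, was left out.

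No ER chaperone was called between the regions in controls at any age. The count was 0 of 5 in each, against 36.9% (1 month), 39.3% (2 months) and 37.7% (3 months) of all genes. The log2 fold changes of the 5 ER chaperones lay between −0.29 and 0.30. Hspa5, for example, had 0.10 (−0.35 to 0.55) at 1 month, −0.07 (−0.32 to 0.18) at 2 months and −0.08 (−0.47 to 0.30) at 3 months. For Calr the value of 2 months, −0.29 (−0.56 to −0.02, adjusted p = 0.0524), passed the adjusted p without reaching the fold minimum. In Tpp1-/- mice Sdf2l1 was called higher in Cb at 3 months, with 8.73, 6.004 and 7.15 CPM in the F/M libraries and 24.9, 6.90 and 9.72 CPM in those of Cb. These groups overlapped, and the log2 fold change of 0.93 (0.08 to 1.77, adjusted p = 0.0631) became 0.18 (adjusted p = 0.610) without Cb replicate 1. The call was also lost without F/M replicate 2 or 3. Over all alternatives the adjusted p ranged from 3.60e-07 to 0.610.

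**Figure D3:**
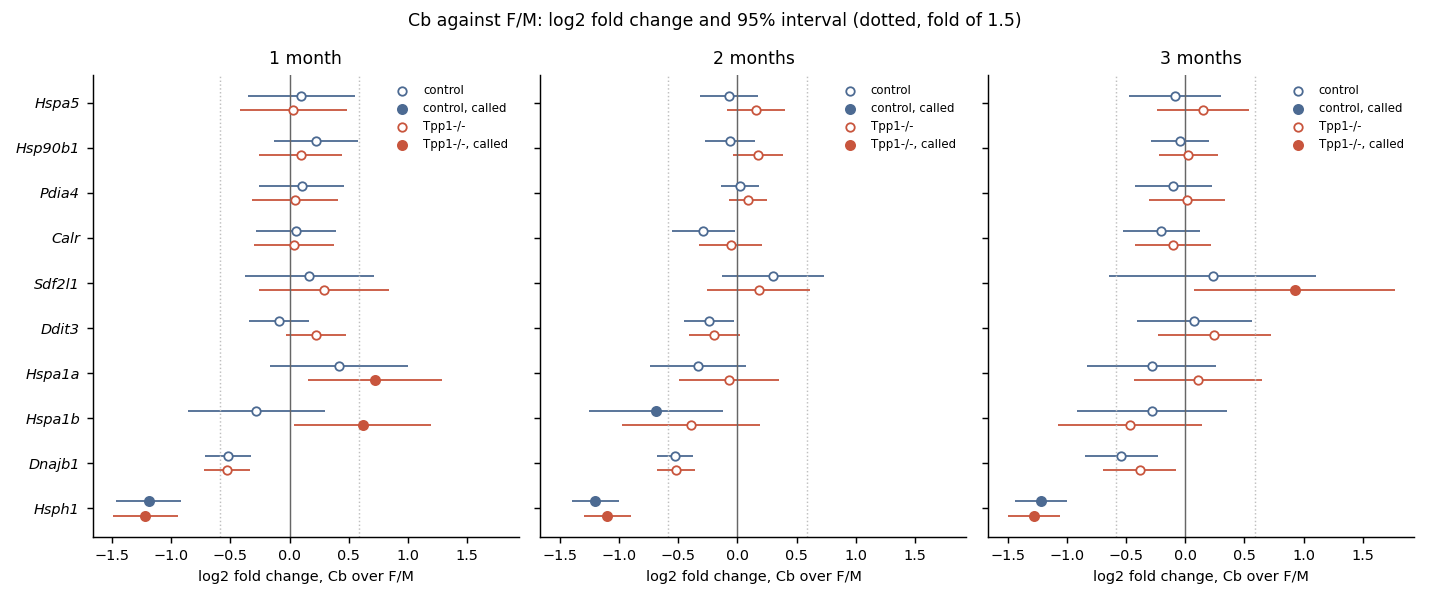
Log2 fold change of Cb against F/M for each of the 10 genes at each age, in control and in Tpp1-/- mice, with 95% intervals from the edgeR fit, dotted lines at a fold of 1.5 and filled points for calls. Hsph1 lies between −1.28 and −1.10 and Dnajb1 between −0.54 and −0.38 in all 6, while the ER chaperones lie around 0 apart from Sdf2l1 in Tpp1-/- mice of 3 months.

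Among the other cytosolic chaperone genes, Bag3, a co-chaperone that links Hsp70 to autophagy, was higher in Cb in 6 of 6 comparisons, with log2 fold changes of 1.14 to 1.52. Fkbp4, an Hsp90 co-chaperone, was higher in 6 of 6 as well, with 0.95 to 1.24. These 2 genes were chosen after their values were seen, and each kept its call in every alternative. Of the 22 genes of their list, 2 to 4 were called higher in Cb and 0 lower in each comparison, against 15.8% to 17.8% of all genes called higher and 19.9% to 23.3% called lower. The number called higher was thus near or under the general share, and the number called lower under it. Of the 15 other ER genes, Dnajc3 was called in controls of 2 months and Manf in Tpp1-/- mice of 3 months. Of all genes 39.3% were called in the first of these comparisons and 38.2% in the second. Both genes were higher in Cb and both were named after their values were seen. The comparison of Manf includes the Cb replicate that stood apart, and neither call was put to the alternatives.

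The libraries of a group differed from each other in the ER chaperones together. This was measured as the deviation of log2 CPM from the mean of the group, over 36 libraries. Among the 5 ER chaperones the 10 pairwise correlations lay between 0.58 and 0.94, with a median of 0.85, and between 0.49 and 0.93, with a median of 0.81, without the library that stood apart. Among the 4 cytosolic genes the 6 correlations lay between 0.10 and 0.58 (median 0.39, or 0.28 without that library). The 20 between the groups had a median of 0.60 (0.37 without it), and the highest was that of Hsp90b1 with Hsph1, 0.94 (0.93 without it). Hspa1b lay at 0.61 to 0.77 with the 5 ER chaperones (0.56 to 0.74 without that library), within their own range. Ddit3 had a median of 0.28 with the other 9, and −0.07 without that library. Its highest values were 0.75 with Dnajb1 and 0.59 with Sdf2l1, which were 0.35 and 0.27 without it. These correlations are descriptive, since the libraries fall into shared groups and the genes of a library are read from the same RNA.

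**Figure D4:**
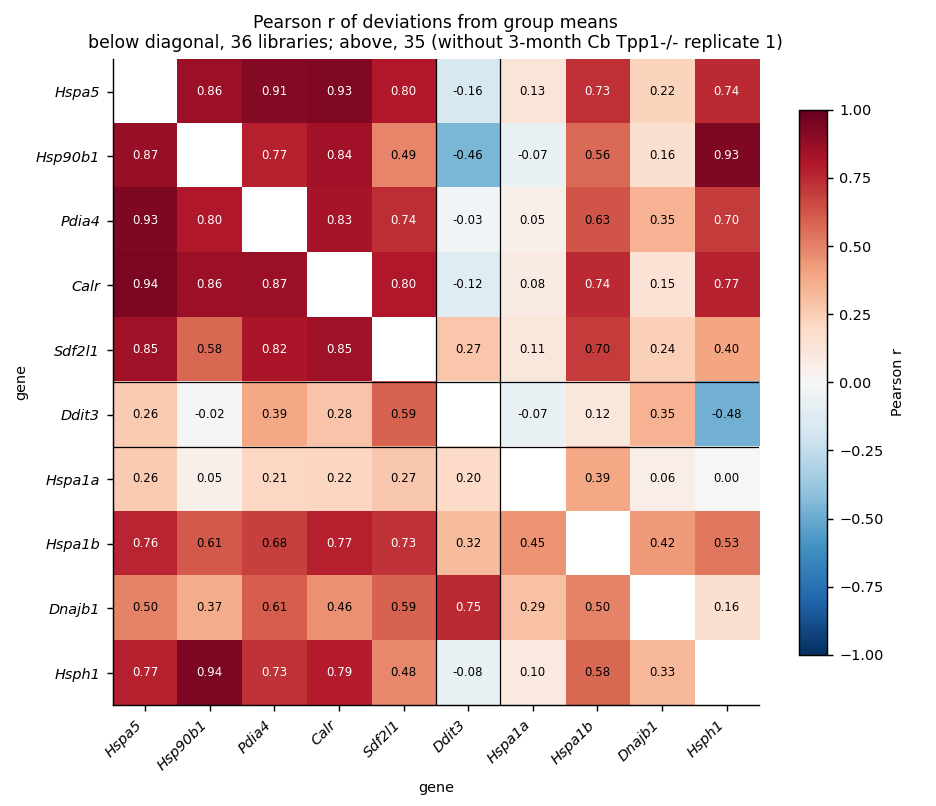
Pearson correlation between each pair of the 10 genes of the deviations of log2 CPM from the group mean, over 36 libraries under the diagonal and without the 3-month Cb Tpp1-/- replicate 1 over it. The ER chaperones lie between 0.58 and 0.94 with each other, Hspa1b between 0.61 and 0.77 with them, and Hsph1 reaches 0.94 with Hsp90b1, while Ddit3 is at 0.39 or under with 4 of the ER chaperones and at 0.59 with Sdf2l1.

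Ranked by the correlation with the mean of the other 4 ER chaperones, Hspa5 was first, Calr in place 2, Pdia4 in place 3, Sdf2l1 in place 8 and Hsp90b1 in place 14 of 16709 genes. Ranked instead by the correlation with the mean of the other 3 cytosolic genes, Hspa1b was in place 11, Dnajb1 in place 223, Hspa1a in place 921 and Hsph1 in place 1095 of 16710 genes. Outside the group, the genes most like the mean of the ER chaperones were Pdia6 (0.96), Xbp1 (0.93), Dnajb11 (0.91), Manf (0.90) and Htra1 (0.81). Pdia6 and Dnajb11 are ER folding factors, Manf is an ER stress-inducible secreted protein, Xbp1 a transcription factor of the unfolded protein response and Htra1 a secreted serine protease. Most like the mean of the cytosolic genes were Manf (0.80), 1600020E01Rik (0.78), Vgf (0.77), Stip1 (0.76) and Serpinh1 (0.75). Those most like Ddit3 were Hras (0.89), Mrpl28 (0.88) and Polr2e (0.88). All of these ranks and correlations were over 36 libraries, with none repeated without the library that stood apart. In that library Ddit3 deviated from its group mean by 0.63. A correlation above 0.5 with the mean of the ER chaperones was found for 11 of 15 other ER genes (73.3%), 7 of 22 cytosolic chaperone genes (31.8%) and 0 of 10 genes of the sensors and the Atf4 branch, against 492 of 16713 genes (2.94%). Cirbp and Rbm3 had a median correlation of −0.45 with the mean of the ER chaperones and of −0.33 with that of the cytosolic genes, beside medians near 0 over all genes.

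The deviations followed the replicate number at 1 month. Replicate 1 was the lowest of its group for the mean of the ER chaperones in 4 of 4 groups, at −0.49 to −0.13 on the log2 scale, and replicate 3 the highest in 4 of 4, at 0.21 to 0.30. Hspa5 had 269 to 353 CPM in the 4 libraries of replicate 1, 331 to 462 in those of replicate 2 and 444 to 478 in those of replicate 3. Pdia4 had 45.7 to 51.8, 53.1 to 68.8 and 65.7 to 67.6 CPM in turn. Immediate early genes went the opposite way, highest in replicate 1 and lowest in replicate 3 in 4 of 4 groups. Replicate 1 of that age was female, so that for its low place sex and replicate number cannot be told apart. Replicates 2 and 3 were both male, and the ER chaperones of replicate 2 stood at −0.08 to 0.19, under those of replicate 3 in each group. At 3 months the female libraries, replicate 3, had deviations of −0.17 to 0.17.

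At 2 months, when all mice were male, replicate 2 was the lowest in 4 of 4 groups, both for the ER chaperones (−0.29 to −0.07) and for the cytosolic genes (−0.22 to −0.19). Replicate 1 was the highest in 4 of 4 for the ER chaperones. For immediate early genes it was the highest in 4 of 4 by mean log2 CPM, but by summed CPM it was the lowest in F/M Tpp1-/- mice (357 CPM against 369 and 383). Controls were siblings of the mutants, bred from heterozygous parents, and by the labels the libraries of a replicate number at an age were all of the same sex. Whether such a number also marks a litter, a dissection or a sequencing run is not given in the sources used here.

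**Figure D5:**
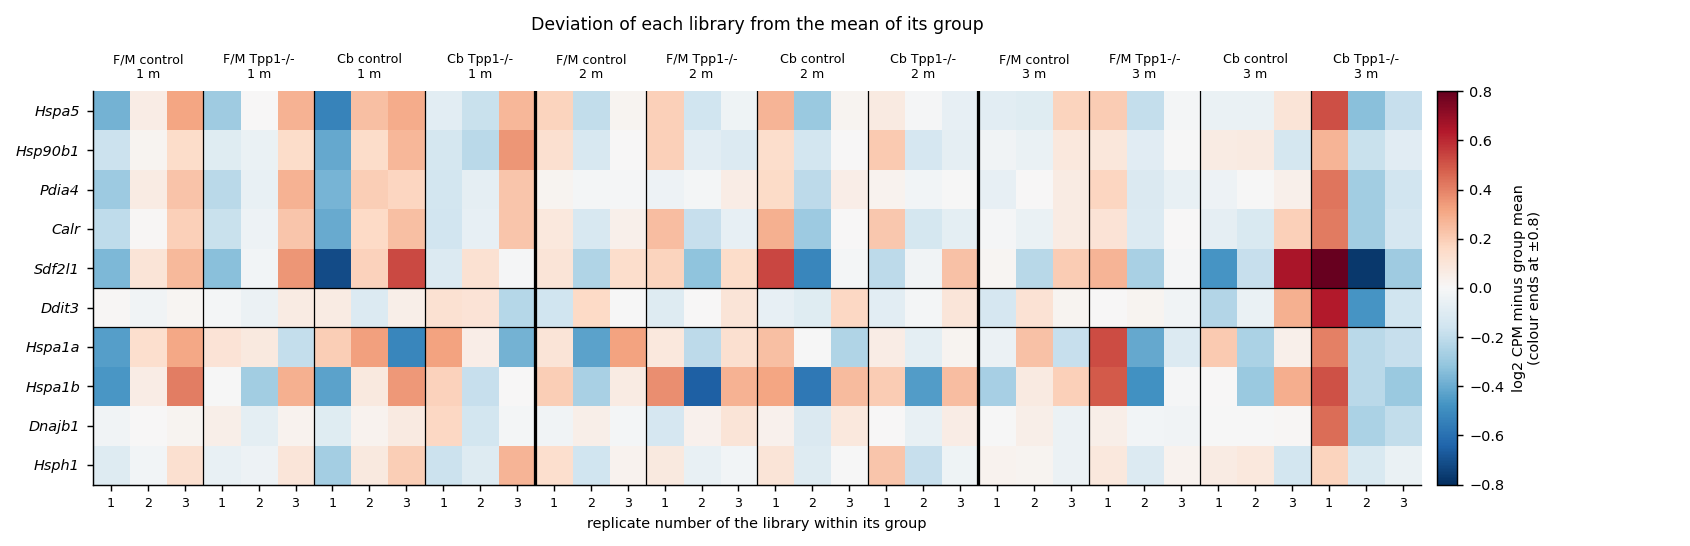
Deviation of log2 CPM from the mean of its group for each of the 10 genes (rows) in each of the 36 libraries (columns, by age, region, genotype and replicate), red above and blue under the mean, with the colour ending at ±0.8. At 1 month the ER chaperones are mostly blue in replicate 1 and red in replicate 3, and at 3 months the column of Cb Tpp1-/- replicate 1 is red for all 10 genes.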

How the data were processed

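The authors made stranded mRNA libraries, sequenced them as single-end 50-base reads and aligned these with STAR 2.5.2b. They deposited raw counts of reads per gene, whole numbers with no normalization, on GRCm38. Per the file headers, featureCounts 1.6.3 with GENCODE M21 and strand setting 1 was used at 1 month, version 1.6.2 with M16 and setting 2 at 2 months, and version 1.6.2 with M18 and setting 1 at 3 months. The submitters' processing notes name featureCounts 1.26.1. Fractional counting of multi-mapping reads is given in the headers, yet all counts are whole. Differing strand settings and releases could move the counts of overlapping or copied genes, so each age was fitted by itself. Depth was 10609896 to 29942380 counts per library, and p values measure the spread between libraries.

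Groups were taken from the labels. Genes kept by filterByExpr (17916, 17229 and 17224 at 1, 2 and 3 months) were fitted with edgeR 4.0.16 in R 4.3.3: TMM scaling, the 12 libraries and 4 groups of an age, and the two-sided quasi-likelihood test with Benjamini-Hochberg adjustment over all genes tested. Differences between ages came from 1 model of 36 libraries and 18322 genes. A gene was called with a fold change of 1.5 or more and an adjusted p below 0.1, without the fold minimum for differences between regions or ages in the Tpp1-/- effect. Intervals are 95% intervals of the log2 fold change. The fit was tested on simulated data. Within groups no 2 libraries agreed within sampling noise (chi-square per degree of freedom 1.43 to 75.24 over 36 pairs). The 10 genes, the pathway lists and the marker lists were chosen with earlier results of these data known. Named are the 10 genes, every gene of the pathway lists called in a genotype comparison, and the genes most alike by correlation. Bag3, Fkbp4, Dnajc3 and Manf between the regions, and Cirbp and Rbm3, fall outside this rule and were chosen after their values were seen.

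The alternatives were DESeq2 1.42.0, limma-voom (limma 3.58.1), RLE size factors, library totals, no filter, no fold minimum, a choroid plexus score or the sex label as a covariate, the 6 libraries of a comparison alone, a replicate block, and the omission of each library in turn. The sum of Hspa1a and Hspa1b was added after the data were seen. Promoters are from RefSeq. Figures were drawn with Python 3.11.15 and matplotlib 3.10.9. A second gene identifier with the name Ddit3 in 1 annotation was not used here.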

Additional observations from a re-analysis of the deposited data

How the results depend on the processing

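No called difference of the 10 genes changed sign in any alternative, and Hsph1 was called lower in Cb throughout. The number of the 10 called between control and Tpp1-/- mice stayed at 0 in all alternatives but 1: with no filter on low counts it was 1 in Cb at 3 months (Sdf2l1), and the test of the effect at 3 against 1 month in Cb then called 2 (Hspa5 and Sdf2l1). With no fold minimum, the number called between the regions in controls of 1, 2 and 3 months was 2, 5 and 2, in place of 1, 2 and 1, and in Tpp1-/- mice 4, 2 and 3, in place of 3, 1 and 2. With Hspa1a and Hspa1b summed it was 1 in controls of 2 months. DESeq2 and limma-voom each called 1 in Tpp1-/- mice of 3 months, in place of 2. With each library left out in turn the number ranged from 1 to 2 in controls of 1 month, 1 to 2 in controls of 2 months and 1 to 2 in Tpp1-/- mice of 2 months. It ranged from 2 to 3 in Tpp1-/- mice of 1 month and 1 to 3 in those of 3 months. The cause of these moves was not tested.

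With the replicate number as a block, the number called between the genotypes was 0 in all 6 comparisons, and between the regions 1, 3, 2, 1, 1 and 2, the same as without the block. The call of Hmox1 in Cb at 3 months was lost (adjusted p = 0.197, within a range of 0.0177 to 0.498 over all alternatives). Numbers were taken as pairs where every correlation of same-numbered libraries was over 0.1. For control and Tpp1-/- libraries this was not so at any age (mean correlation −0.01 to 0.16), although all 3 were positive in F/M at 1 month (0.07 to 0.25) and at 3 months (0.02 to 0.08). For F/M and Cb libraries it was so in controls of 1 month (lowest 0.14), while in Tpp1-/- mice the lowest was 0.09 at 1 month and 0.08 at 2 months.

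Differences that were not called depended more on single libraries: 50 of 360 log2 fold changes between the genotypes changed sign when a library was left out, and 8 of 628 under the other alternatives.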
